A study of Mus musculus with 6 samples.

Results

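Mouse cortical neuron cultures also hold RNA of genes that astrocytes use most, and 10 of these genes are described here: the transporters Slc1a2, Slc1a3 and Slc4a4, the gap junction gene Gja1, the enzyme genes Glul and Aldoc, the receptor gene Ntsr2, the markers Gfap and S100b, and the transcription factor gene Sox9. They were chosen by name, and each matched 1 of the 55471 gene identifiers in the count table. A low-count filter left 16562 genes to test, among them these 10. The cultures came from cortices of CD1 mouse embryos taken at E14.5 to E15 and were kept for 11 days. Both groups received 2 uM cytosine arabinoside, which kills dividing cells, and both were transduced with a lentivirus on day 6. The virus carried a control short hairpin RNA in 3 libraries (shControl, genotype label WT) and a hairpin directed against Opa1 in 3 (shOpa1, genotype label Opa1 knock-down). Opa1 encodes the GTPase that fuses mitochondrial inner membranes. The labels name the cells cortical neurons and describe no sort, so every library is a bulk mixture in which fewer cells of a type and less RNA per cell cannot be told apart.

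Astrocytes take up the glutamate that neurons release, through the transporters encoded by Slc1a2 and Slc1a3, and turn it into glutamine with glutamine synthetase, the product of Glul. They are joined to each other by gap junctions built mainly of connexin 43, the product of Gja1, and they exchange bicarbonate and sodium with the space around neurons. In the cortex they form late, from radial glia that have finished making neurons, and several of these 10 genes, Slc1a3, Glul and Sox9 among them, are already active in radial glia, while some neurons also carry Slc1a2 RNA.

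Opa1 lay at 202, 205 and 202 CPM (counts scaled to a common library size) in shControl and at 10.2, 8.64 and 8.50 CPM in shOpa1, a log2 fold change of -4.48 ± 0.0876 (SE). Library totals ran from 24676709 to 32961580 counts. Mitochondrially encoded genes took 3.19% to 5.31% of the counts in shControl and 1.59% to 2.38% in shOpa1. On the second principal component replicate 3 took -29.4 (shControl) and -30.4 (shOpa1), far from the 13.8 to 16.4 of the remaining libraries, and the replicate numbers pair the libraries across the groups. For the 10 genes, results with the replicate number as a block, or for pairs 1 and 2 alone, are given where these change a call. The 20 neuron genes on a marker list summed to between 11666 and 12307 CPM in shControl and between 8522 and 8820 CPM in shOpa1. The 10 astrocyte genes summed to 336, 372 and 526 CPM in shControl and to 179, 183 and 257 CPM in shOpa1. These sums did not overlap between the groups, and replicate 3 was the highest of each. Slc1a2 alone had means of 247 CPM in shControl and 103 CPM in shOpa1, out of mean sums of 411 and 206 CPM. The separation of the sums therefore rests mainly on this 1 gene and is no trait of all 10.

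By edgeR's quasi-likelihood test with Benjamini-Hochberg adjustment over all tested genes, Slc1a2, Gja1, Slc4a4 and S100b were lower in shOpa1, which is 4 of 10 genes where 20% of all tested genes were lower. Ntsr2 and Gfap were higher, which is 2 of 10 where 18.9% of all tested genes were higher, and calls in either direction covered 38.9% of all tested genes. At a change of at least 2-fold there were the same 4 lower genes, against 5.65% of all tested genes, and Ntsr2 alone was higher, against 3.14%. Slc1a3, Glul, Aldoc and Sox9 missed the threshold of 0.05. With the replicate block Slc1a3, Glul and Aldoc passed too, giving 7 lower and 2 higher, where 30.7% and 28.8% of all tested genes were called in these directions. In pairs 1 and 2 alone 6 were lower and 1 was higher, against 26.1% and 24.8%. S100b passed the low-count filter only through the shControl libraries, so without it the count is 3 lower of 9. The groups did not overlap for 6 of the 10 genes, which is close to the 51.8% of all tested genes for which this held. The median log2 fold change of the 10 was -0.90, beside -0.01 over all tested genes.

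**Figure D1:**
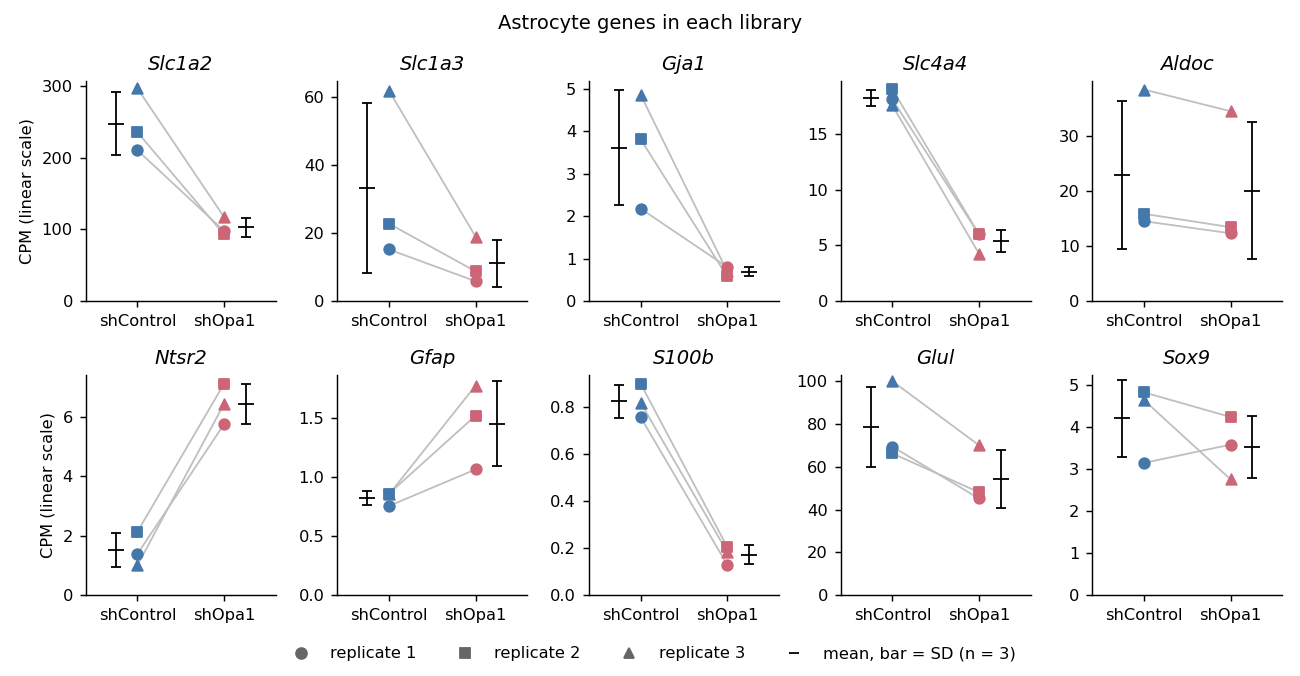
Level of each of the 10 genes in each library, in CPM on a linear axis that starts at 0 and is set for each gene, with shControl on the left and shOpa1 on the right. Point shapes mark the replicate number, grey lines join libraries of the same number, and bars give the mean ± SD (n = 3). Slc1a2, Gja1, Slc4a4 and S100b lie lower in every shOpa1 library than in any shControl library, Ntsr2 and Gfap lie higher, and replicate 3 is the top point of both groups for Slc1a3, Aldoc and Glul.

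Slc1a2 (ENSMUSG00000005089, chr2:102658659-102790784, + strand, GRCm38) encodes GLT-1, the main glutamate transporter of mature astrocytes. It was measured at 210, 235 and 296 CPM in shControl and at 98.1, 93.1 and 118 CPM in shOpa1. Every shOpa1 library lay below every shControl library. The log2 fold change was -1.26 ± 0.145 (adjusted p = 0.000807), a 2.40-fold lower level, and the pairs differed by -1.10, -1.33 and -1.33 on the log2(CPM + 0.5) scale. It was lower in each of 16 alternative fits, with log2 fold changes from -1.37 to -1.11. Of its exonic length, 1.44% overlaps Gm13872 on the opposite strand.

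Slc1a3 (ENSMUSG00000005360, chr15:8634124-8710764, - strand) encodes GLAST, the glutamate transporter of radial glia and young astrocytes. Its levels were 15.2, 22.8 and 61.8 CPM in shControl and 5.90, 8.79 and 19.0 CPM in shOpa1. The shOpa1 replicate 3 reached above the lowest shControl library, so the groups overlapped, although within each pair the shOpa1 library was the lower one. The pair differences were -1.30, -1.33 and -1.68, and the unpaired log2 fold change of -1.57 ± 0.639 missed the threshold (adjusted p = 0.0986). With the replicate block the value was -1.51 ± 0.0839 (edgeR adjusted p = 8.84e-08), and in pairs 1 and 2 alone it was -1.36 (edgeR adjusted p = 0.0348). Without shControl replicate 3 and with no block it was -0.76, and without shOpa1 replicate 3 it was -2.18.

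Slc4a4 (ENSMUSG00000060961, chr5:88886486-89239653, + strand) encodes the electrogenic sodium bicarbonate cotransporter NBCe1. Its shControl levels were 18.1, 19.0 and 17.5 CPM, and its shOpa1 levels were 5.99, 6.02 and 4.28 CPM. The shControl libraries lay close together, and every shOpa1 library was below all of them. Slc4a4 was lower by a log2 fold change of -1.74 ± 0.149 (edgeR adjusted p = 0.00022), a 3.35-fold lower level, and all 16 alternatives kept the call, between -1.82 and -1.60.

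Gja1 (ENSMUSG00000050953, chr10:56377330-56402513, + strand), the connexin 43 gene, was lower in shOpa1, with the widest fitted fold of the 10 in the unpaired fit. It lay at 2.18, 3.81 and 4.86 CPM in shControl and at 0.806, 0.584 and 0.703 CPM in shOpa1. The lowest shControl library was still above the highest shOpa1 library. Its log2 fold change was -2.37 ± 0.333 (edgeR adjusted p = 0.00159), a 5.18-fold lower level, and the 16 alternatives ranged from -2.63 to -2.10. The shOpa1 values rest on 25, 20 and 23 counts, against 52, 102 and 131 in shControl, so these levels rest on few counts.

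Ntsr2 (ENSMUSG00000020591, chr12:16653382-16660227, + strand), which encodes the low-affinity neurotensin receptor that astrocytes carry, moved the other way. It had 1.38, 2.13 and 1.00 CPM in shControl and 5.74, 7.10 and 6.42 CPM in shOpa1. Every shOpa1 library was above every shControl library, from 178, 243 and 210 counts against 33, 57 and 27. Its log2 fold change was 2.09 ± 0.272 (edgeR adjusted p = 0.00116), a 4.25-fold higher level, and all 16 alternatives kept the call, between 1.86 and 2.43.

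Glul (ENSMUSG00000026473, chr1:153899944-153909723, + strand) had 69.4, 66.3 and 100.04 CPM in shControl and 45.2, 48.1 and 70.1 CPM in shOpa1. The shOpa1 replicate 3 lay above the first and second shControl libraries, so the groups overlapped, and within each pair the shOpa1 library was lower. The log2 fold change of -0.53 ± 0.224 did not pass without pairing (edgeR adjusted p = 0.109), and with the replicate block it was -0.53 ± 0.0526 (edgeR adjusted p = 6.96e-06). In pairs 1 and 2 alone the adjusted p was 7.84e-05 by edgeR, by DESeq2 without pairing it was 0.0431, and without shOpa1 replicate 3 edgeR gave -0.76 (adjusted p = 0.0276). Of the exonic length of Glul, 3.07% overlaps genes on the opposite strand.

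Aldoc (ENSMUSG00000017390, chr11:78322968-78327781, + strand), which encodes the brain isoform of the glycolytic enzyme aldolase, had nearly the same levels in both groups. It lay at 14.55, 15.9 and 38.5 CPM in shControl and at 12.3, 13.5 and 34.5 CPM in shOpa1. Replicate 3 was more than double the others in both groups, and the groups overlapped almost fully. Unpaired, the log2 fold change was -0.19 ± 0.536 (edgeR adjusted p = 0.806), and with the replicate block it was -0.20 ± 0.0662 (edgeR adjusted p = 0.0202). In pairs 1 and 2 alone it was -0.23 (edgeR adjusted p = 0.0618). The unpaired direction turned when shControl replicate 3, shOpa1 replicate 1 or shOpa1 replicate 2 was left out, with values of 0.40, 0.05 and 0.03.

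Gfap (ENSMUSG00000020932, chr11:102887336-102900912, - strand), the intermediate filament gene that rises in reactive astrocytes, was close to too low to read. Its counts were 18, 23 and 23 in shControl and 33, 52 and 58 in shOpa1, which is 0.755, 0.859 and 0.853 CPM against 1.06, 1.52 and 1.77 CPM. The groups did not overlap. The log2 fold change was 0.82 ± 0.257 (edgeR adjusted p = 0.0398), and 9 of 16 alternatives did not keep the call. DESeq2 gave an adjusted p of 0.0813, limma-voom 0.0537, and edgeR in pairs 1 and 2 alone 0.0843. The call was also lost without shControl replicate 1 (edgeR adjusted p = 0.116), 2 (0.099) or 3 (0.0754), and without shOpa1 replicate 2 (0.114) or 3 (0.103), with log2 fold changes from 0.65 to 0.84.

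S100b (ENSMUSG00000033208, chr10:76253853-76261159, + strand), which encodes a calcium-binding protein of astrocytes and some oligodendrocyte lineage cells, was too low to read as a level in shOpa1. It had 18, 24 and 22 counts in shControl and 4, 7 and 6 in shOpa1, or 0.755, 0.897 and 0.816 CPM against 0.129, 0.204 and 0.183 CPM. The groups did not overlap, and the summed counts of 64 (exact Poisson 95% interval 49.3 to 81.7) and 17 (9.90 to 27.2) were apart, with intervals that cover counting error only. The log2 fold change was -2.22 ± 0.297 (edgeR adjusted p = 0.00129), and 15 alternatives kept the call. S100b was over the cutoff of the low-count filter in 3 shControl and 0 shOpa1 libraries. It was thus tested only through the group where it is high, and its call is no support. The alternative that asks for 10 counts in every library leaves S100b out.

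Sox9 (ENSMUSG00000000567, chr11:112782224-112787760, + strand), the transcription factor gene needed for the switch from making neurons to making glia, gave no call in any fit. It lay at 3.14, 4.82 and 4.64 CPM in shControl and at 3.58, 4.23 and 2.75 CPM in shOpa1. The groups overlapped, and the pairs went both ways, with differences of 0.16, -0.17 and -0.66. The log2 fold change was -0.26 ± 0.234 (edgeR adjusted p = 0.428), and over the 16 alternatives it ran from -0.43 to -0.03.

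**Figure D2:**
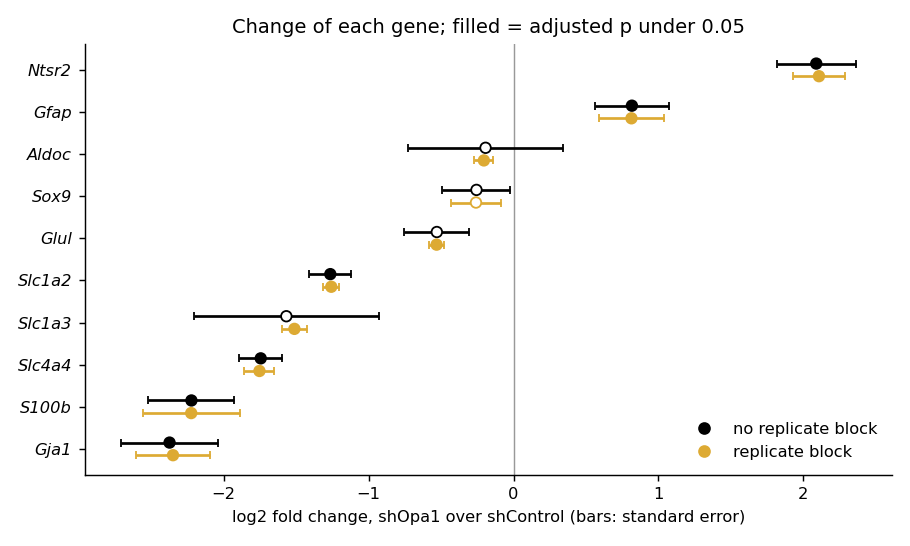
Log2 fold change of shOpa1 over shControl for each of the 10 genes with its standard error, fitted without (black) and with (yellow) the replicate block, filled points with an edgeR adjusted p under 0.05. The block narrows the error of Slc1a3 from 0.639 to 0.0839 and of Glul from 0.224 to 0.0526 while the values stay near -1.5 and -0.5.

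In the table of fold changes that the authors deposited, the directions were those given above. For Slc1a3, the authors' deposited table has -1.47 with an adjusted p of 1.14e-06. For Glul, the authors' deposited table has -0.52 with an adjusted p of 1.67e-12, and for Aldoc it has -0.20 with 0.129. Gfap stands in the authors' deposited table at 0.82 with an adjusted p of 0.0967, above 0.05. The authors' standard errors for Slc1a3 (0.283) and Aldoc (0.106) were smaller than those of DESeq2 without pairing here (0.760 and 0.645). Those for Gfap (0.406 against 0.386) and S100b (0.640 against 0.585) were not. The authors' model may therefore differ from the unpaired fits, and which terms it held was not established here.

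Levels of different genes were compared as CPM per kilobase of exon (RPKM, mean ± SD, n = 3). In shControl Glul (20.8 ± 4.93) and Slc1a2 (18.8 ± 3.36) were highest, with overlapping libraries. Aldoc (7.04 ± 4.12) and Slc1a3 (3.90 ± 2.93) followed and also overlapped, then Slc4a4 (1.61 ± 0.0645) and Sox9 (1.02 ± 0.222). S100b (0.554 ± 0.0481), Ntsr2 (0.482 ± 0.184) and Gja1 (0.353 ± 0.132) formed a low group in which neighbours overlapped, and Gfap was lowest at 0.195 ± 0.0139. In shOpa1 Glul stayed on top at 14.4 ± 3.60, Slc1a2 (7.84 ± 0.985) overlapped with Aldoc (6.16 ± 3.83), and Ntsr2 came next at 2.06 ± 0.218, with libraries that overlapped those of Slc1a3 (1.32 ± 0.807). Sox9 (0.852 ± 0.180) overlapped with Slc1a3, and Slc4a4 (0.479 ± 0.0879) with Gfap (0.344 ± 0.0852). S100b (0.116 ± 0.0263) and Gja1 (0.068 ± 0.0108) were at the bottom. These lengths count every annotated exon, retained introns included. Over its longest protein-coding transcript instead, a length chosen after the data were seen, Gja1 had 1.14 RPKM in shControl, above Sox9 at 1.02 and Ntsr2 at 0.987. In shOpa1 this length put Gja1 at 0.219 RPKM, above S100b at 0.116, so the bottom rank of Gja1 depends on the length used.

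Whether the genes moved in step was measured by dividing each by Slc1a3 within a library. As the log2 of the ratio of counts, with 0.5 added to each count, Aldoc over Slc1a3 was -0.06, -0.52 and -0.68 in shControl and 1.06, 0.61 and 0.86 in shOpa1, a difference of 1.27 with no overlap. For Ntsr2 the ratio differed by 3.62 and for Gfap by 2.25, also with no overlap. The ratios of Slc1a2 (0.22), Slc4a4 (-0.28), S100b (-0.70), Gja1 (-0.81), Glul (0.95) and Sox9 (1.23) overlapped between the groups. Within the pairs each of these ratios differed in 1 direction, for Glul by 0.75, 0.91 and 1.19, for Sox9 by 1.55, 1.19 and 0.95, and for Gja1 by -0.06, -1.30 and -1.06. An exact two-sided permutation test of 3 against 3 libraries cannot give a p below 0.1, which those of Aldoc, Ntsr2 and Gfap reached. Adjusted over the 11 ratios computed, this smallest p is 0.275, so no ratio could pass.

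The 3' untranslated regions of Slc1a2, Gja1 and Slc4a4 hold the 7 letters GAAACTA, a sequence picked in an earlier search over the fold changes of these same libraries, so its presence here is a description and no test. The search looked at the sense strand of the longest annotated 3' untranslated region of each gene (GENCODE release 21, GRCm38). Of the 4 lower genes 3 hold it, of the 2 higher genes 0 and of the 4 genes without a call 0, while 9.63% of 13850 searched genes other than Opa1 hold it. These shares take no account of length, and a longer region has more places for any 7 letters. The regions of Slc1a2 (9250 bases) and Slc4a4 (4183 bases) are the longest of the 10. That of Gja1 has 1720 bases, and those of genes without a site run from 317 (Ntsr2) to 2250 bases (Sox9). The sites are printed 5′ to 3′ on the + strand with 10 bases on each side, the 7 letters in capitals, at chr2:102781786-102781792, chr10:56390280-56390286, chr5:89235936-89235942 and chr5:89238461-89238467 in this order. They are shown because 3 genes of unlike function share them, and their part in the lower levels was not tested.
Slc1a2 site: cgctgctggaGAAACTActttgaatgg
Gja1 site: tggacaatgaGAAACTAatttgtttga
Slc4a4 first site: caccttttatGAAACTAttgaaagaac
Slc4a4 second site: actgtgtgcaGAAACTActaatggttt
The letters around the 7 differ from site to site. Of the other astrocyte genes searched, 6 of 45 hold it: 2 of the 12 lower ones, Hepacam and Plpp3, 4 of the 29 without a call, Sparc, Slc15a2, Acsbg1 and F3, and 0 of the 4 higher ones. These shares, 16.7% and 13.8%, were alike. Hepacam had 0.258, 0.263 and 0.367 CPM in shOpa1 and passed the low-count filter only through shControl, so its call is no support. S100b, which was lower, holds none.

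Replicate 3 set several of these genes apart within both groups. For Slc1a3 its level was 3.25 times the mean of replicates 1 and 2 in shControl and 2.59 times in shOpa1, and for Aldoc it was 2.53 and 2.67 times. Glul stood at 1.47 and 1.503 times and Slc1a2 at 1.33 and 1.23 times. Of the others, Gja1 was at 1.62 and 1.01 times, Slc4a4 at 0.947 and 0.713 times, Sox9 at 1.16 and 0.704 times, Ntsr2 at 0.570 and 1.00 times, Gfap at 1.06 and 1.37 times and S100b at 0.988 and 1.10 times. A level more than double in both groups was found for 2 of the 10 genes, for 8 of 46 other astrocyte genes (among them Aqp4, Aldh1l1, Slc38a3, Acsbg1, Tril, Tnc and Grin2c, chosen after their values were seen), for 0 of 18 reactive astrocyte genes, for 2 of 18 radial glia genes (Nes and Fabp7), for 0 of 20 neuron genes and for 1.20% of all tested genes. Among oligodendrocyte lineage genes it was found for 3 of 11, Cspg4, Olig1 and Olig2.

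**Figure D3:**
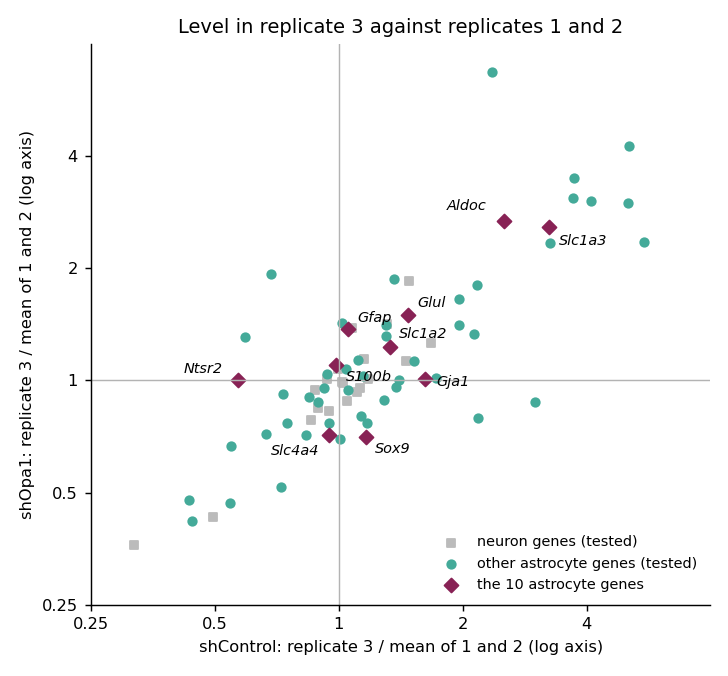
Level in replicate 3 divided by the mean of replicates 1 and 2, on log axes, with shControl on the x axis and shOpa1 on the y axis, for the 10 genes, the other astrocyte genes and the neuron genes. Slc1a3 and Aldoc lie beyond 2 on both axes together with 8 other astrocyte genes, and none of the 20 neuron genes does.

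Relatives of some of the 10 genes were measured beside them. Among glutamate transporters, Slc1a1, the neuronal EAAC1 gene, lay at 86.8, 104 and 96.6 CPM in shControl and 84.9, 91.8 and 100 CPM in shOpa1, a log2 fold change of -0.05 ± 0.092 (edgeR adjusted p = 0.674). The ratio of Slc1a2 to Slc1a1 was lower by 1.20 on the log2 scale with no overlap (exact permutation p = 0.1, the smallest possible). Slc1a4 (-0.05) and Slc1a6 (-0.10) gave no call, and Slc1a5, the neutral amino acid transporter gene, was higher by 1.07 ± 0.322 (edgeR adjusted p = 0.0395). Among connexin genes Gja3 was lower (-1.92 ± 0.386, edgeR adjusted p = 0.0074), and Gjd2 of neuronal gap junctions (-0.11), Gja4 (-0.49) and Gjc1 (-0.43) gave no call. With the replicate block Gja4 (edgeR adjusted p = 0.00801) and Gjc1 (0.0107) were lower. Gjb6, the connexin 30 gene of astrocytes, had too few counts to test.

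Among bicarbonate transporter genes, Slc4a2 (-0.55), Slc4a3 (-0.48), Slc4a7 (-0.74) and Slc4a8 (-0.47) were lower by edgeR, with smaller fitted changes than Slc4a4 (the differences from it were not tested), and Slc4a10, a neuronal member, was higher by 0.59 ± 0.0971 (edgeR adjusted p = 0.00316). Slc4a5 and Slc4a11 gave no call. Aldoa, the general aldolase gene, lay between 649 and 710 CPM in all libraries with a log2 fold change of -0.01 ± 0.0581. Ntsr1, the high-affinity neurotensin receptor gene, was lower where Ntsr2 was higher: it had 32.4, 29.97 and 26.2 CPM in shControl and 9.44, 10.3 and 12.8 CPM in shOpa1 (-1.45 ± 0.139, edgeR adjusted p = 0.000346). Nts, the gene of their ligand, had a log2 fold change of -1.02 without a call (edgeR adjusted p = 0.136), and Sort1 gave 0.13. Sox8, a relative of Sox9, was at -1.18 without a call. With the replicate block all 3 were called by edgeR, Nts at -0.89 (adjusted p = 0.0488), Sort1 at 0.14 (0.0193) and Sox8 at -1.16 (0.0063). Sox8 had 0.545, 0.523 and 1.22 CPM in shControl and 0.226, 0.292 and 0.489 CPM in shOpa1. It passed the low-count filter only through shControl, so its call is no support. Sox10 had at most 0.0611 CPM. Over the list of 45 family genes, 30 were tested, 11 were lower (36.7%) and 2 were higher, against 20% and 18.9% of all tested genes. With the replicate block 18 were lower and 4 higher, against 30.7% and 28.8% of all tested genes.

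Other astrocyte genes were mixed in direction. Of 49 listed, 46 were tested, 12 were lower (26.1%) and 4 were higher, where 20% and 18.9% of all tested genes were called in these directions. The median log2 fold change was -0.38, beside -0.01 over all tested genes. With the replicate block 25 were lower and 6 higher, against 30.7% and 28.8% of all tested genes. In pairs 1 and 2 alone 18 were lower and 9 higher, against 26.1% and 24.8%. Without shControl replicate 2, or without shOpa1 replicate 1, the lower count was 7. The lower genes included Plpp3, a lipid phosphatase gene (-1.55 ± 0.173), Sparcl1, which encodes a secreted matrix protein (-0.71 ± 0.0746), and Cst3, the cystatin C gene (-0.69 ± 0.0945). Phgdh, the first enzyme of serine synthesis, was higher by 1.99 ± 0.244 (edgeR adjusted p = 0.00118). Phgdh also stands on a list of ATF4 targets, of which 15 of 17 tested genes were higher and 1 was lower, against 18.9% and 20% of all tested genes. Nupr1 and Gdf15 among the 15 passed the low-count filter only through shOpa1, so their calls are no support. The part of ATF4 in the level of Phgdh was not tested. The listed genes summed to between 1331 and 1646 CPM in shControl and between 1046 and 1248 CPM in shOpa1. Most of this difference came from Atp1b2 (means of 337 and 224 CPM) and Cst3 (231 and 143 CPM), so the sum does not describe the list as a whole.

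Genes of astrocyte reactivity gave 3 lower (16.7%) and 3 higher among 18 tested, near the 20% and 18.9% of all tested genes. With the replicate block 5 were called in each direction, against 30.7% lower and 28.8% higher of all tested genes. Cp, the ceruloplasmin gene, was higher by 2.70 ± 0.240 and Fbln5 by 0.90 ± 0.240, while Socs3, a brake on cytokine signalling, was lower by edgeR (-1.37 ± 0.249), as was Amigo2 (-0.78 ± 0.198). Their summed level was 186 to 245 CPM in shControl and 192 to 239 CPM in shOpa1, so it overlapped where Gfap itself did not. Among genes that regulate astrocyte genes, 6 of 27 were lower (22.2%, near the 20% of all tested genes) and 2 higher. With the replicate block 10 were lower and 5 higher, beside the same shares of all tested genes as above. The BMP receptor genes Bmpr2 (-1.12 ± 0.0708) and Bmpr1a (-0.99 ± 0.141) and the LIF receptor gene Lifr (-1.06 ± 0.129) were lower by edgeR, while Lif had 0.293, 0.187 and 0.148 CPM in shControl and 0.838, 0.555 and 0.611 CPM in shOpa1 and passed the low-count filter only through shOpa1, so its call as higher (1.67 ± 0.362) is no support.

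Genes that handle glutamate, glutamine and GABA outside the 10 gave 3 lower (15.8%) and 6 higher among 19 tested, against 20% and 18.9% of all tested genes. With the replicate block they gave 7 lower and 8 higher, against 30.7% and 28.8%. Gpt2 (1.26 ± 0.0741) and Got1 (0.72 ± 0.0891), aminotransferase genes, and Slc38a1, a glutamine transporter gene (0.41 ± 0.0564), were higher. The summed level was 3413 to 3555 CPM in shControl and 3336 to 3603 CPM in shOpa1.

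Markers of other cells differed from list to list. Beside their counts, 20% of all tested genes were lower and 18.9% higher by edgeR, or 30.7% and 28.8% with the replicate block. Of 18 radial glia and progenitor genes 8 were lower and 0 higher by edgeR, with 10 lower and 1 higher under the replicate block. Without the block 10 gave no call, Pax6 (-0.23) and Nes (0.57) among them. The summed level was 1047 to 1172 CPM in shControl (mean 1091) and 562 to 619 CPM in shOpa1 (mean 590). Most of it came from Pea15a (means of 436 and 261 CPM) and Ddah1 (290 and 77.6 CPM), so the sum does not describe the list as a whole. Ddah1 (-1.90 ± 0.126), Pea15a (-0.74 ± 0.0642), Sox2 (-0.98 ± 0.0849) and Emx2 (-0.56 ± 0.126) were lower, while Fabp7 gave -1.77 without a call (edgeR adjusted p = 0.0617) and -1.82 with the replicate block (edgeR adjusted p = 1.76e-08). Of 20 neuron genes 12 were lower and 3 higher, and 17 and 3 with the replicate block, among them Syt1 (-0.99 ± 0.0909) and Snap25 (-0.58 ± 0.075), which were lower. Oligodendrocyte lineage genes gave 4 lower and 0 higher of 11 tested, among them Mog, Cnp and Ugt8a, with 5 lower and 1 higher under the block, and summed to 68.6 to 103 CPM in shControl and 54.3 to 71.5 CPM in shOpa1. Of 16 microglia genes only Cd68 (higher by 1.69) and Aif1 (-1.0) could be tested, and the list summed to 9.94 to 14.2 CPM in shControl and 12.2 to 23.9 CPM in shOpa1. Vascular and fibroblast genes summed to 27.8 to 42.0 CPM in shControl and 76.6, 21.2 and 28.8 CPM in shOpa1, with Kdr the 1 gene of 12 called (lower). The high value came from shOpa1 replicate 1, where Col3a1 had 23.0 CPM and Col1a2 12.0 CPM, against at most 1.58 and 1.43 CPM in the other shOpa1 libraries. Of 14 cell division genes 10 were tested, Mcm2 (1.66), Mcm5 (1.76) and Pcna (0.41) were higher, Ccnb2 (-0.63) was lower and 6 gave no call. The list summed to 38.9 to 53.1 CPM in shControl and 62.8 to 66.5 CPM in shOpa1. This difference came from Pcna (means of 22.7 and 30.2 CPM), Mcm2 (4.75 and 15.0 CPM) and Mcm5 (2.58 and 8.75 CPM). The sum therefore does not describe the list as a whole. The part of these other cells in the levels of the 10 genes was not tested.

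**Figure D4:**
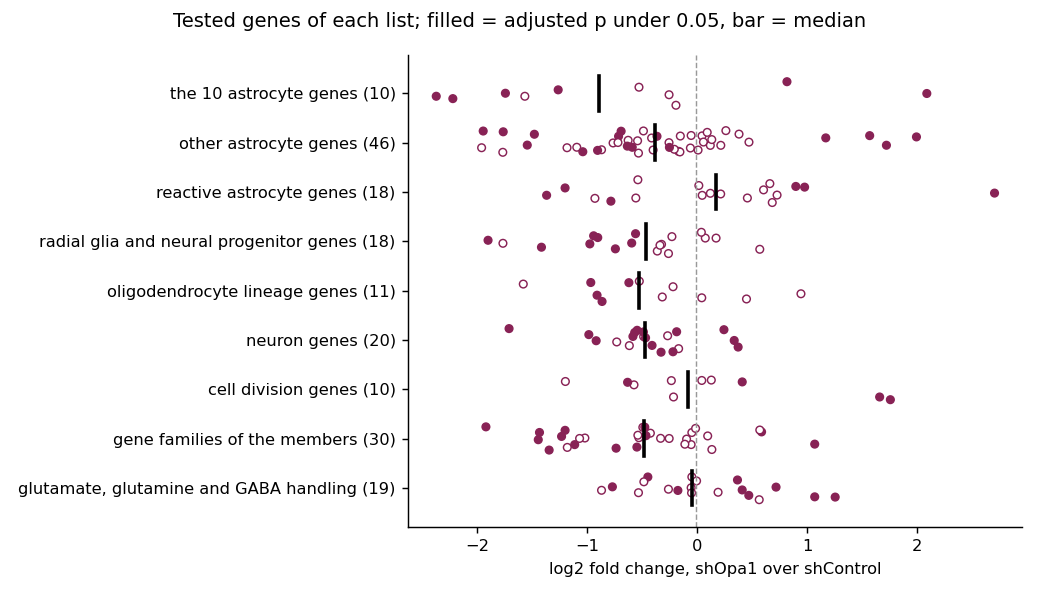
Log2 fold change of shOpa1 over shControl for the tested genes of each list, the number tested in parentheses, filled points with an edgeR adjusted p under 0.05 and a bar at the list's median. The 10 genes have their median at -0.90 and spread from -2.37 to 2.09, and the other astrocyte genes have theirs at -0.38.

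For each of the 10 genes the gene of most similar pattern was sought among 12925 genes, as the smallest root mean square distance between centred log2(CPM + 0.5) values over the 6 libraries. Slc4a4 was followed most closely by Tpbgl (distance 0.026), Glul by Kndc1 (0.0298), Slc1a2 by Fads1 (0.0555), Gfap by Cmss1 (0.057) and Aldoc by Unc13c (0.0605). Distances were wider for Sox9 with Enpp4 (0.103), Slc1a3 with Itgb5 (0.148), Gja1 with Metrnl (0.166) and Ntsr2 with Shmt2 (0.177). S100b lay at 0.0154 from Tdrd7, but on this scale its changes are compressed by the added 0.5 CPM: the log2 fold changes of S100b and Tdrd7 were -2.22 and -0.98. The added 0.5 CPM also compresses the changes of Gfap, Gja1 and Ntsr2. Log2 fold changes were 0.82 for Gfap and 0.57 for Cmss1, -2.37 for Gja1 and -1.95 for Metrnl, and 2.09 for Ntsr2 and 1.85 for Shmt2.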

How the data were processed

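RNA of 6 libraries was analysed, 3 per group as the labels give them. Raw counts per gene and exon lengths were deposited by the authors, counted in paired mode by featureCounts 1.6.0 with GRCm38 models of Ensembl release 99, per the file headers, which give no strand option; reads of overlapping genes on opposite strands cannot be told apart. HISAT2, DESeq2 and mm10 are named in the submitters' processing notes. A second table deposited by the authors holds log2 fold changes with standard errors, p-values, a test score, and counts scaled per library, a normalised signal that was not used here.

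Counts were tested with edgeR 4.0.16 (R 4.3.3): TMM scaling, default low-count filter, robust quasi-likelihood test, group as the only term, Benjamini-Hochberg adjustment over 16562 genes, threshold 0.05. Standard errors are log2 fold changes over the root of F. CPM used TMM-scaled totals. DESeq2 1.42.0, limma 3.58.1, other scalings and filters, a replicate block, replicate 3 as a batch, pairs 1 and 2 alone and leaving out each library were alternatives. Deviations from group means correlated at 0.595, 0.608 and 0.714 for replicate numbers 1, 2 and 3, each library's best match in the other group had its own number, and the labels' numbers were taken as pairs. Libraries of 1 group differed beyond sampling noise (chi-square per degree of freedom 6.11 to 30.8). The labels say only biological replicates, so p-values reflect only how far these libraries spread, which may be technical.

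Of 55471 identifiers 55144 had a symbol in a reference table. Aldoa and 1 other listed gene had 2 identifiers, and the one with more counts was taken. Genes with a mean under 50 counts in both groups were called low. The 10 genes and the 12 lists beside them were chosen with earlier results of these data known. Named were the 10 genes, Opa1, up to 4 called genes of smallest p per list, the 2 of highest CPM per marker list, tested family members and the nearest gene of each; some genes under this rule are not reported here. Untranslated regions were the longest per gene with at least 50 bases. In counts simulated for shOpa1 against shControl over 16562 genes, edgeR recovered 125 of 200 genes changed 2-fold (62.5%) and called 12 unchanged genes. Python 3.11.15, numpy 2.4.6, scipy 1.17.1 and pandas 2.3.3 were used.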

Additional observations from a re-analysis of the deposited data

How the results depend on the processing

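Over 16 alternatives, Slc1a2, Gja1, Slc4a4 and Ntsr2 kept direction and call in every one, and S100b did in the 15 that test it. S100b passed the default low-count filter only through shControl, so its call is no support. With the replicate block 9851 genes were called in all, against 6442, 7 of the 10 genes were lower, against 4, and 25 other astrocyte genes were lower, against 12. With replicate 3 as a second batch the lower counts were 7 and 20. The block changed no other call among the 10 than those of Slc1a3, Glul and Aldoc. DESeq2, limma-voom, no low-count filter and pairs 1 and 2 alone each left 1 of the 10 genes higher, against 2, and pairs 1 and 2 gave 9 other astrocyte genes higher, against 4. Leaving out 1 library at a time gave 1 to 2 of the 10 genes higher, 4 to 5 lower, 7 to 13 other astrocyte genes lower and 4589 to 6626 genes in all, with Aldoc from -0.84 to 0.40; with 1 library out, a group rests on the spread pooled over the other libraries. Aldoc turned in direction without shControl replicate 3 (0.40), shOpa1 replicate 1 (0.05) and shOpa1 replicate 2 (0.03), with no call in any. The cause was not tested for any of these. Depth limits S100b in shOpa1, Gfap in both groups, and the precision of Gja1 in shOpa1 and Ntsr2 in shControl.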
